A study of Homo sapiens with 24 samples.

Results

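Interferon-stimulated and antigen presentation genes were followed by symbol in the deposited table of U2OS cells. The list named 39 genes: type I interferon-stimulated genes, the transcription factors that drive them, and class I antigen presentation genes. Of these, 33 had a row among the 12547 endogenous genes of the table. IFI27, IFI35, IRF1, MX1, HLA-B and TAPBP are not analysed here. The rule for membership is by name and uses no measured value, but the list was chosen with earlier results of these data known. All 33 passed the filter on low values, which removed 0 genes.

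U2OS is a human osteosarcoma cell line, and 24 libraries of its polyA RNA were made for a study of how QKI affects RNA stability. QKI is an RNA-binding protein of the STAR family, and QKI7 is one of its isoforms. The 4 genotypes were cells with the guide sgNS and EV (sgNS+EV, the control), cells with the guide sgQKI and EV (sgQKI+EV), and cells with sgQKI and QKI7, either QKI7-WT (sgQKI+QKI7-WT) or the △KH form (sgQKI+QKI7-△KH), which by its label lacks the KH domain, the part of QKI that contacts RNA. Each genotype was sampled at 0, 4 and 8 h of joint treatment with actinomycin D at 5 µg/mL, which blocks transcription, and sodium arsenite at 200 µM, an oxidative stressor that every treated group received, with 2 libraries in each of the 12 groups. The labels do not say whether the 2 libraries came from separate cultures, whether each genotype is 1 clone, or how the constructs are driven, so p-values measure the spread between these libraries, which may be technical. No interferon treatment is named for any group. Values are the authors' signal on a linear scale set by ERCC spike-in RNAs, synthetic transcripts added to each sample. Their scale is not known to be per transcript length, so levels are compared within a gene and not between genes. In bulk RNA, fewer cells and less RNA per cell cannot be told apart.

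Type I interferon binds its receptor and activates the kinases JAK1 and TYK2, which phosphorylate STAT proteins. STAT2 and IRF9 are subunits of the factor ISGF3, which binds interferon-stimulated response elements (ISREs) in promoters. Its targets include cytosolic RNA sensors, proteins that bind or cut foreign RNA, the ubiquitin-like modifier ISG15 and the genes that load peptides on class I HLA molecules. Many cells keep a low level of these mRNAs without added interferon.

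QKI, the targeted gene, had a 0 h signal of 59.98 and 48.19 in the sgNS+EV libraries and 35.98 and 32.66 in sgQKI+EV (log2 difference −0.63, SE 0.14, limma adjusted p = 0.0264). The groups did not overlap. The row sums transcript from the edited locus and any construct. It was 60.43 and 46.28 at 0 h in sgQKI+QKI7-WT and 47.55 and 50.17 in sgQKI+QKI7-△KH. Against sgQKI+EV the log2 differences were 0.61 (limma adjusted p = 0.142, not passed) and 0.50 (0.0339). sgQKI+QKI7-WT minus sgQKI+QKI7-△KH was 0.11 (adjusted p = 0.587). Log2 values of replicate libraries correlated across genes, which are not independent replicates, with r between 0.9889 and 0.9982, and the lowest r was that of the sgQKI+QKI7-WT libraries at 4 h. Of 10 osteoblast lineage markers 6 had a row (among them RUNX2, SPP1 and COL1A1), as did 3 of 5 epithelial markers (EPCAM, KRT8 and KRT18). Of 14 blood cell markers CD68 alone had a row, with a signal of 11.5 to 23.5 over the libraries, and of 4 endothelial markers 0 had one. None of 10 interferon ligand genes looked for had a row.

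The first question was how much of each transcript was left after 8 h. In the control, 32 of 33 members fell between 0 and 8 h in the limma fit (log2 of the signal plus 1, p-values adjusted over all genes, threshold 0.05), beside 88.2% of all genes. The members lay far apart around a median of 62.8% left, against 58.5% for all genes. At the low end were IFIT2 at 6.73% and IFIT3 at 13.2%, and at the high end IRF9 at 86.9% and BST2 at 89.9%. BST2 (log2 change −0.15, SE 0.09, adjusted p = 0.122) was the member that did not pass.

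The IFIT family, proteins that recognise the ends of foreign RNA, held the 3 members with the least left, IFIT2, IFIT3 and IFIT1. IFIT2 (chromosome 10, 89283694 to 89309276) gave 50.3 and 50.5 at 0 h, 16.1 and 14.4 at 4 h and 3.06 and 3.72 at 8 h in sgNS+EV. Each time point lay clear of the next. The log2 change to 8 h was −3.55 (SE 0.12, adjusted p = 2.92e-16), and only 18 of 12547 genes had less left. IFIT3 (chromosome 10, 89327894 to 89340971) went from 84.04 and 88.55 to 34.59 and 30.75 and then 12.03 and 10.72 (−2.82, SE 0.10, adjusted p = 1.28e-15), with 71 genes below it. IFIT1 (chromosome 10, 89392546 to 89406486) went from 55.5 and 56.0 to 16.4 and 15.0 at 8 h (−1.77, SE 0.10), and IFIT5 from 21.4 and 19.3 to 7.49 and 8.14 (−1.27, SE 0.14). If loss was exponential between the 0 h and 8 h means, the half-lives in the presence of arsenite were 2.06 h for IFIT2, 2.74 h for IFIT3, 4.37 h for IFIT1 and 5.80 h for IFIT5. IFIT5 differed in its course, with 83.6% left at 4 h, against 30.3% of IFIT2.

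Sensors of RNA and DNA also lost much of their signal. DDX58 (chromosome 9, 32455705 to 32526324), which encodes the RNA sensor RIG-I, went from 18.2 and 17.4 at 0 h to 11.4 and 11.2 at 4 h and 5.95 and 6.21 at 8 h in sgNS+EV. Its 3 time points did not overlap (log2 change to 8 h −1.41, SE 0.13, adjusted p = 2.33e-09). IFIH1, which encodes the RNA sensor MDA5, went from 5.39 and 5.92 to 2.16 and 2.40 (−1.02, SE 0.17), with 40.3% left. IFI16, a nuclear DNA sensor, kept 54.2% (−0.87, SE 0.08).

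The ubiquitin-like and ADP-ribosyl group was divided. DTX3L, a ubiquitin ligase that pairs with the ADP-ribosyltransferase-like protein PARP9, kept 44.5%, PARP14, an ADP-ribosyltransferase, 48.9%, TRIM21, a cytosolic antibody receptor and ubiquitin ligase, 56.7%, and PARP9 57.0%. UBE2L6, the conjugating enzyme for ISG15, kept 74.4%, and ISG15 itself 78.5%. All 6 passed as lower. PARP9 and DTX3L overlap on chromosome 3 (122527924 to 122564577 and 122564238 to 122575203), and whether the counting used strand is not given in the sources used here, although the library kit is a stranded one, so reads of their shared stretch may not be fully separated.

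The enzymes that handle double-stranded RNA lay close together, with 51.3% of OAS3, 55.3% of EIF2AK2, 58.0% of ADAR and 58.3% of OAS1 left. OAS1 and OAS3 make the signal that activates RNase L, EIF2AK2 encodes the kinase PKR, and ADAR deaminates adenosine in double-stranded RNA. All 4 passed as lower, with log2 changes of −0.53 to −0.86. OAS1 was among the faintest members, with libraries at 2.62 and 3.28 at 0 h and 1.73 and 1.70 at 8 h. The nuclear body proteins SP110 and SP100 kept 62.8% and 66.9%.

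Transcripts for antigen presentation and for the interferon transcription factors were among the more stable. B2M, the invariant light chain of class I molecules (chromosome 15, 44711487 to 44718877), gave 1307 and 1266 at 0 h, 1424 and 1241 at 4 h and 1043 and 1035 at 8 h in sgNS+EV. The 0 h and 4 h libraries interleaved and both 8 h libraries lay below them (8 h change −0.31, SE 0.10, adjusted p = 0.00629). HLA-C, a class I heavy chain whose reads the counting could split with its near-identical relatives, kept 81.2% (−0.30, SE 0.11), and TAP1, a subunit of the peptide transporter, 84.8% (−0.23, SE 0.10). STAT2 kept 83.9% and IRF9 86.9%, so the mRNAs of these subunits of ISGF3 had far more left than IFIT1, IFIT2 and IFIT3. That contrast does not extend to all interferon-stimulated members, since ISG15 kept 78.5%, IFI6 80.2% and BST2 89.9%. No test compared members with each other.

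The remaining effectors were also above the all-gene median. NMI kept 81.2%, IFI6 80.2%, LGALS3BP 76.5%, PLSCR1 70.0% and SAMHD1, which depletes deoxynucleotides, 64.7%. IFI6 is a small membrane protein, NMI binds STAT proteins, PLSCR1 is a phospholipid scramblase and LGALS3BP a secreted glycoprotein. Within the IFITM family, membrane proteins that block viral entry, IFITM2 and IFITM3 kept 81.8% and 79.2% while IFITM1 kept 53.0%. IFITM1 went from 14.0 and 14.3 to 6.53 and 8.45, and IFITM3 from 478 and 533 to 387 and 414, with no overlap of 0 h and 8 h in either. These genes are close relatives and the annotated spans of IFITM1 and IFITM2 overlap (chromosome 11, 313506 to 315272 and 307631 to 315272), so the authors' counting could have split reads between them.

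The control calls of 8 members rested on single libraries. Without sgNS+EV 0 h replicate 2 the adjusted p was 0.113 for IFI6, 0.151 for IFITM2, 0.0585 for ISG15, 0.224 for IRF9, 0.108 for OAS1, 0.0889 for HLA-C, 0.178 for TAP1 and 0.0735 for NMI. Without 8 h replicate 1 it was 0.163 for IFI6, 0.0856 for IFITM2, 0.241 for ISG15, 0.187 for IRF9, 0.176 for HLA-C and 0.311 for TAP1. Without 0 h replicate 1 it was 0.071 for IFI6, 0.174 for ISG15 and 0.0595 for TAP1, and without 8 h replicate 2 it was 0.079 for NMI.

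At its low end the order of loss was the same in the other genotypes. IFIT2, IFIT3 and IFIT1 had the least left in each. They kept 5.67%, 12.5% and 22.6% in sgQKI+EV, 4.77%, 9.82% and 23.5% in sgQKI+QKI7-WT, and 6.82%, 14.2% and 21.9% in sgQKI+QKI7-△KH. Some other members moved. OAS1 kept 58.3% in sgNS+EV and 31.6% in sgQKI+EV, and IFITM1 kept 53.0% in sgNS+EV and 65.3% in sgQKI+QKI7-△KH. The agreement of the whole order was not tested. At 8 h, 33 of 33 members were lower than at 0 h in sgQKI+EV (90.5% of all genes), 30 in sgQKI+QKI7-WT (90.0%) and 31 in sgQKI+QKI7-△KH (90.6%). IFI6 and BST2 did not pass in either QKI7 genotype, and HLA-C did not pass in sgQKI+QKI7-WT. The median log2 change of the members was −0.58 in sgNS+EV, −0.76 in sgQKI+EV, −0.71 in sgQKI+QKI7-WT and −0.59 in sgQKI+QKI7-△KH, beside −0.70, −0.82, −0.77 and −0.77 for all genes. The share of members called was thus near that of all genes in each genotype.

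**Figure D1:**
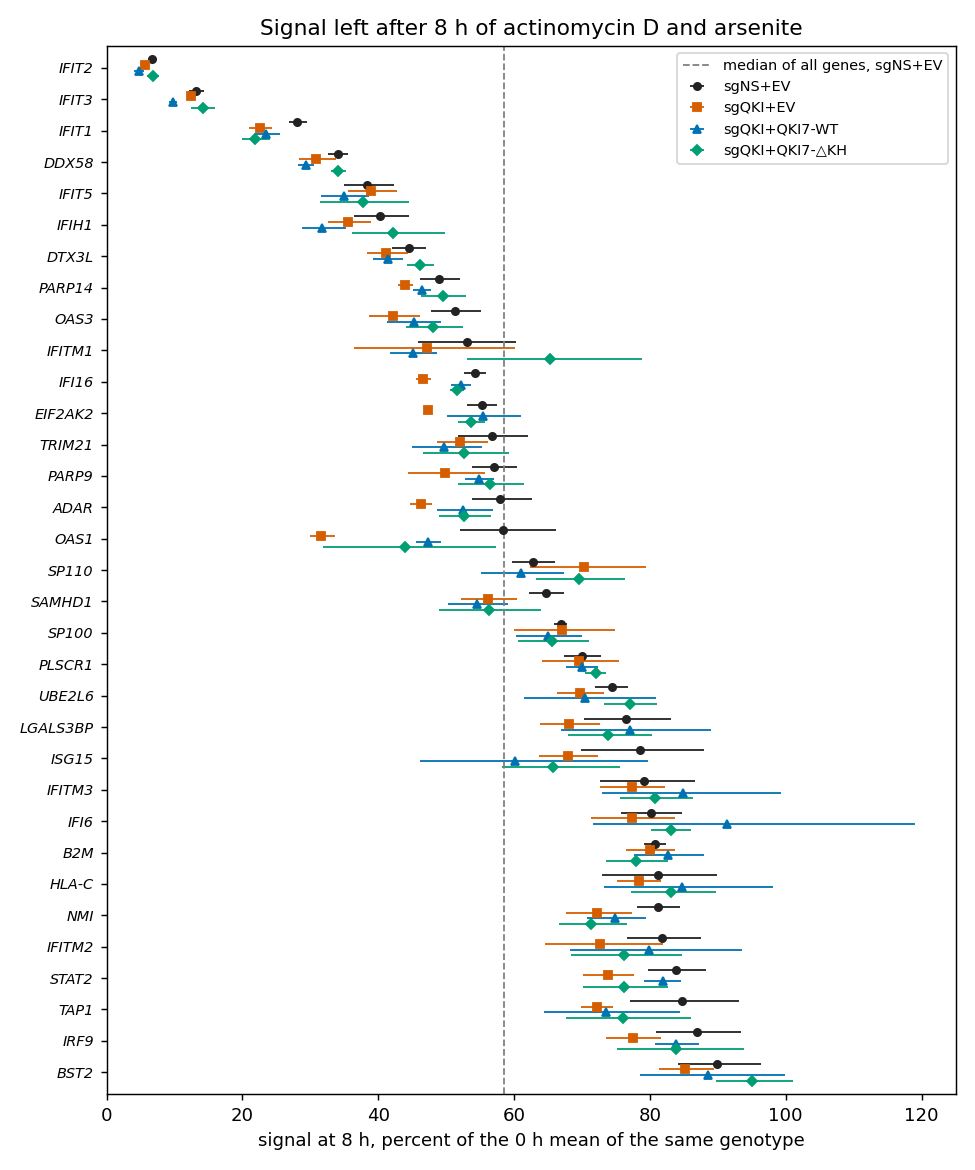
Signal at 8 h as a percent of the 0 h mean of the same genotype (x axis) for the 33 members, ordered by the control. Points are ratios of group means, bars run from the lowest to the highest ratio of an 8 h library to a 0 h library, and the dashed line is the median of all genes in sgNS+EV (58.5%). IFIT2 lies between 4.77% and 6.82% in the 4 genotypes and BST2 between 85.2% and 95.1%.

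These falls are on the spike-in scale. Quantile normalisation and scaling to library totals take out all or part of a fall shared by all genes: the median change of all genes in sgNS+EV was −0.70 as deposited, 0.05 with quantile normalisation and −0.23 with library totals. Around that shift, with quantile normalisation 12 members were called higher and 9 lower in sgNS+EV. With library totals 7 were higher and 14 lower, beside 0 higher and 32 lower as deposited. Of all genes, 60.1% and 61.7% were called in either direction on these scales, near the share of the members (21 of 33 on each). Of the members called lower in sgQKI+EV, sgQKI+QKI7-WT and sgQKI+QKI7-△KH, 13, 11 and 11 were called higher with quantile normalisation and 6, 5 and 7 with library totals. All genes called in either direction there were 65.9%, 62.8% and 62.8% with quantile normalisation and 64.9%, 65.9% and 62.4% with library totals. IRF9 was 0.61 and 0.30 above 0 on those scales and TAP1 0.57 and 0.27, while IFIT1, IFIT2, IFIT3 and DDX58 remained lower on each.

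Between 0 h and 4 h, 21 members fell in sgNS+EV (59.8% of all genes), 18 in sgQKI+EV (63.8%), 13 in sgQKI+QKI7-WT (42.9%) and 21 in sgQKI+QKI7-△KH (73.6%). Between 4 h and 8 h, 21 fell in sgNS+EV (64.9%), 30 in sgQKI+EV (79.2%), 28 in sgQKI+QKI7-WT (83.7%) and 22 in sgQKI+QKI7-△KH (58.2%).

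Not every member fell steadily. In sgNS+EV, IFI6 (chromosome 1, 27666061 to 27672218) gave 65.9 and 67.8 at 0 h, 39.4 and 44.7 at 4 h and 51.4 and 55.8 at 8 h. The 4 h libraries were the lowest and the 8 h libraries lay between them and 0 h. It fell to 4 h (log2 −0.66, adjusted p = 0.000358) and rose from 4 h to 8 h (0.34, SE 0.14, adjusted p = 0.0308). ISG15 (chromosome 1, 1001138 to 1014540) had the same order of times, with 94.0 and 86.1, then 47.3 and 57.9, then 65.7 and 75.7, a fall of 0.77 to 4 h (adjusted p = 0.000331) and a rise of 0.42 from 4 h to 8 h (adjusted p = 0.0226). These were 2 of 33 members that rose in the second interval, beside 1.46% of all genes. Quantile normalisation takes out the shared fall of that interval (all-gene median −0.39 as deposited). The larger rises on that scale (0.64 and 0.68) thus add no support. Both calls were lost without sgNS+EV 4 h replicate 1 or 8 h replicate 2. In sgQKI+EV, IFI6 was 54.6 and 52.2, then 62.1 and 55.9, then 43.7 and 38.9, and ISG15 was 76.1 and 79.9, then 69.5 and 69.8, then 50.9 and 55.1. There both fell from 4 h to 8 h (IFI6 −0.51, adjusted p = 0.00234, and ISG15 −0.39, adjusted p = 0.0296). In sgQKI+QKI7-WT and sgQKI+QKI7-△KH neither gene passed over that interval. IFI6 changed by −0.11 and −0.09 and ISG15 by −0.27 and −0.26 (limma adjusted p 0.112 to 0.557). In sgNS+EV, TAP1 and BST2 also had both 8 h libraries above those at 4 h, but did not pass (0.15 and 0.10).

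Over that second interval 5 members differed between sgQKI+EV and sgNS+EV, each with the larger fall in sgQKI+EV, beside 11.6% of all genes with such a difference. The differences were −0.85 for IFI6 (SE 0.19, adjusted p = 0.0265), −0.81 for ISG15 (SE 0.22, adjusted p = 0.0293), −0.55 for HLA-C and LGALS3BP and −0.38 for ADAR. LGALS3BP was 355 and 360 at 4 h and 334 and 366 at 8 h in sgNS+EV, and 441 and 378, then 284 and 261, in sgQKI+EV. Its sgNS+EV libraries of these times overlapped and those of sgQKI+EV did not. None of the 5 passed without sgNS+EV 4 h replicate 1 (adjusted p 0.0943 to 0.116), sgNS+EV 8 h replicate 2 (0.158 to 0.177), sgQKI+EV 4 h replicate 1 (0.191 to 0.223), or sgQKI+EV 8 h replicate 1 (0.0562 to 0.073) or 2 (0.122 to 0.142). The members' median ran from −0.12 without sgQKI+EV 4 h replicate 2 to 0.07 without its replicate 1, beside −0.02 with all libraries. With quantile normalisation the count of members called was 0 (0.319% of all genes called), and with library totals 11 (27.6%). Of those 11, 10 were higher and IFI6 (adjusted p = 0.0334) the 1 lower.

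Between sgQKI+QKI7-WT and sgQKI+QKI7-△KH the second interval gave 6 members, all with the larger fall in sgQKI+QKI7-WT, beside 16.1% of all genes. They were DTX3L (−0.51), EIF2AK2 (−0.46), IFIT3 (−0.44), PARP9 (−0.41), PARP14 (−0.40) and IFI16 (−0.40). EIF2AK2 went from 54.97 and 41.76 at 4 h to 29.8 and 26.4 at 8 h in sgQKI+QKI7-WT and from 40.0 and 39.6 to 31.5 and 33.1 in sgQKI+QKI7-△KH. None of the 6 calls held in every run that left out 1 library. The members' median ran from −0.44 without sgQKI+QKI7-WT 4 h replicate 2 to −0.22 without its replicate 1, beside −0.29 with all libraries. With quantile normalisation or library totals 0 members and 0% of all genes passed.

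**Figure D2:**
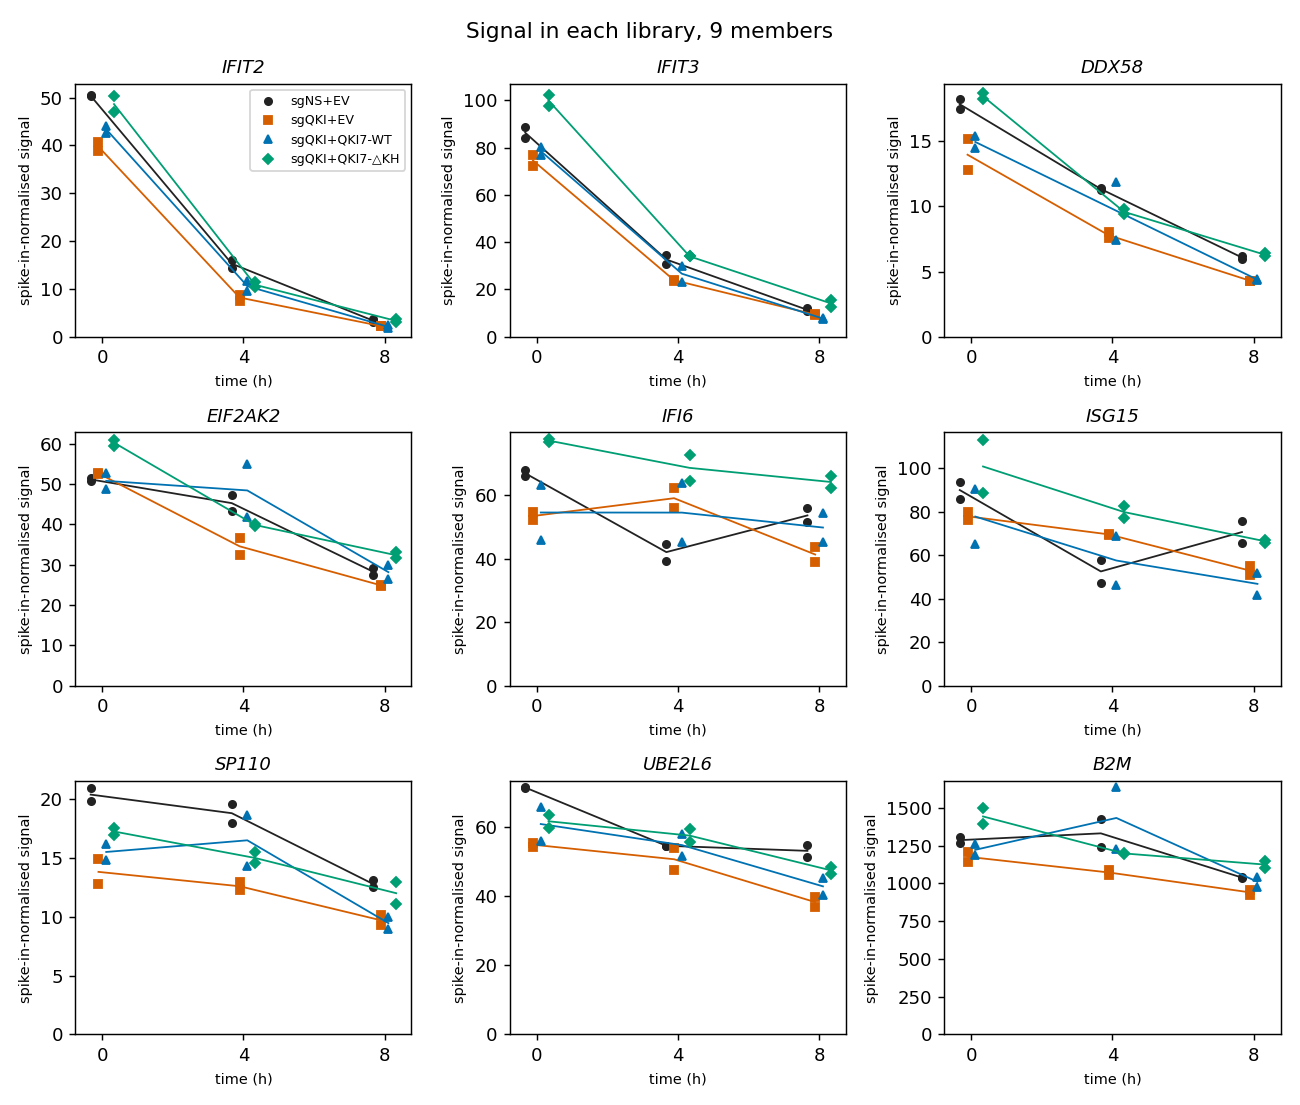
Spike-in-normalised signal (y axis, linear, from 0) against time of treatment (x axis, h) for 9 members. Points are libraries, shifted sideways by genotype, and lines join group means. IFIT2, IFIT3 and DDX58 fall at each step in every genotype, while IFI6 and ISG15 in sgNS+EV are lowest at 4 h (42.0 and 52.6 on average).

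Promoters with the core of the element that ISGF3 binds were found at either end of the order of loss, though not in every member. RefSeq promoter windows of 300 bases (GRCh38.p14, 250 bases before the start site and 50 after) were found for 31 of the 33 members, all but IFIT2 and IFITM2, with DDX58 matched under its symbol RIGI. The ISRE core, searched on both strands as GAAA, any 2 bases and GAAA, was present in 19 of 31 (61.3%), against 3.65% of all 27305 promoters in that table and 2.48% of those of 9887 measured genes. The gamma-activated site, searched as TTCNNNGAA on both strands, was present in 7 of 31 (22.6%), against 7.88% and 6.34%. Only the first promoter entry of each gene was searched. Of the members without the core, IFI16, UBE2L6, SP100, SP110 and PARP9 had 2 entries and ADAR 3. A core at another start site could thus have been missed. In the windows searched, members with the core kept 13.2% to 89.9% of their signal at 8 h in sgNS+EV (median 56.7%). The 12 without it kept 34.1% to 86.9% (median 63.8%). For 3 members with little left at 8 h and 3 with much left, the 50 bases around the first match are given 5′ to 3′ on the strand of the gene, with ISRE core letters in capitals. Capitals that begin with TTTC are the core read on the opposite strand, and in IFIH1, B2M and BST2 successive matches overlap.
IFIT3, chr10:89327821-89327870, plus strand: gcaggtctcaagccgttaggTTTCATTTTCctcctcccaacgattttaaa
IFIT1, chr10:89392487-89392536, plus strand: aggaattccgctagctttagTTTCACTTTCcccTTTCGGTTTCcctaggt
IFIH1, chr2:162318814-162318863, minus strand: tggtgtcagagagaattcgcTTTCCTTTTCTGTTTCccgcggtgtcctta
IFI6, chr1:27672319-27672368, minus strand: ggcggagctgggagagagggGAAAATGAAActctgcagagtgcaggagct
B2M, chr15:44711353-44711402, plus strand: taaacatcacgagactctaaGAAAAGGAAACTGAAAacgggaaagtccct
BST2, chr19:17405731-17405780, minus strand: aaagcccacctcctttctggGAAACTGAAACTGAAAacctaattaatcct
A match describes the letters of the window and is no measure of binding.

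The second question was whether targeting QKI changed the members before the chase. At 0 h in sgQKI+EV against sgNS+EV, 2 of 33 members were lower and 0 higher (limma, adjusted over all genes), beside 1.37% of all genes lower and 1.55% called in either direction. SP110, a nuclear body protein (chromosome 2, 230167293 to 230225729), gave 19.8 and 20.9 in sgNS+EV and 14.9 and 12.7 in sgQKI+EV, a log2 difference of −0.53 (SE 0.11, adjusted p = 0.0140). UBE2L6 (chromosome 11, 57551656 to 57568284) gave 71.4 and 71.3 against 55.5 and 54.2 (−0.37, SE 0.09, adjusted p = 0.0264). The groups did not overlap for either. Of the other 31 members none passed, and 27 of the 33 had a difference below 0, with a median of −0.19 beside −0.06 for all genes, 68.5% of which were below 0. The differences ran from −0.53 to 0.12, with OAS1 at the upper end. Between those ends, DDX58 stood at −0.34, IFIT2 and PARP14 at −0.33, and STAT2, IRF9 and IFI16 at −0.27.

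Single libraries carried these calls. SP110 was lost without sgNS+EV replicate 1 (adjusted p = 0.0927), sgNS+EV replicate 2 (0.171) or sgQKI+EV replicate 2 (−0.43, 0.325) and passed without sgQKI+EV replicate 1 (0.0236). UBE2L6 did not pass without any of the 4 libraries (0.105 to 0.297), nor with library totals (−0.20), where OAS3 was called higher (0.24, adjusted p = 0.0458). With library totals the median of all genes moved to 0.11 and that of the members to −0.02, so the list lay below all genes on each scale. A fit on the compared groups alone called 18 members lower, beside 10.6% of all genes called in either direction.

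Comparisons at 0 h share the sgQKI+EV or the sgQKI+QKI7-△KH libraries, so they are not independent. Against sgQKI+EV at 0 h, 6 members were higher in sgQKI+QKI7-△KH, beside 12.6% of all genes higher and 12.7% called in either direction. IFI6 rose from 54.6 and 52.2 to 77.7 and 76.5 (0.52, SE 0.14, adjusted p = 0.0241), and IFIT3 from 76.7 and 72.3 to 102 and 97.5 (0.42, SE 0.10, adjusted p = 0.0206). Libraries of the genotypes did not overlap for these. DTX3L (0.36), TAP1 (0.32), PARP9 (0.31) and PLSCR1 (0.23) were the others, with adjusted p between 0.0206 and 0.0477 over the 6. The members' median difference was 0.23 and that of all genes 0.19. With quantile normalisation or library totals the all-gene median moved to 0.00 or −0.05 and 0 members passed, with PLSCR1 at −0.02 on the second scale. Without sgQKI+QKI7-△KH replicate 2 IFIT3 and TAP1 passed (adjusted p = 0.0438 for each), without sgQKI+EV replicate 1 DTX3L did (0.0471), and without sgQKI+EV replicate 2 or sgQKI+QKI7-△KH replicate 1 none did (0.203 to 0.364 and 0.215 to 0.431 over the 6).

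Between sgQKI+QKI7-WT and sgQKI+QKI7-△KH at 0 h, IFI6 was the member that passed, and was lower in sgQKI+QKI7-WT, beside 3.71% of all genes lower and 3.75% called in either direction. Its libraries were 45.8 and 63.2 in sgQKI+QKI7-WT against 77.7 and 76.5 (−0.51, SE 0.14, adjusted p = 0.0424). The groups did not overlap, but sgQKI+QKI7-WT replicate 2 lay nearer to the sgQKI+QKI7-△KH libraries than to its own replicate 1. The call was lost without sgQKI+QKI7-WT replicate 1 (−0.28, adjusted p = 0.324), sgQKI+QKI7-△KH replicate 1 (0.352) or its replicate 2 (0.0945), and with quantile normalisation (−0.38) or library totals (−0.37). Of the members 32 had a difference below 0 (median −0.19), beside 90.9% of all genes (median −0.15). Against sgQKI+EV at 0 h, 0 members passed in sgQKI+QKI7-WT, beside 0.0877% of all genes, and 0 had an unadjusted p under 0.05. SP110 was 14.8 and 16.2 there, overlapping sgQKI+EV, and UBE2L6 was 56.0 and 65.6, just above it.

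**Figure D3:**
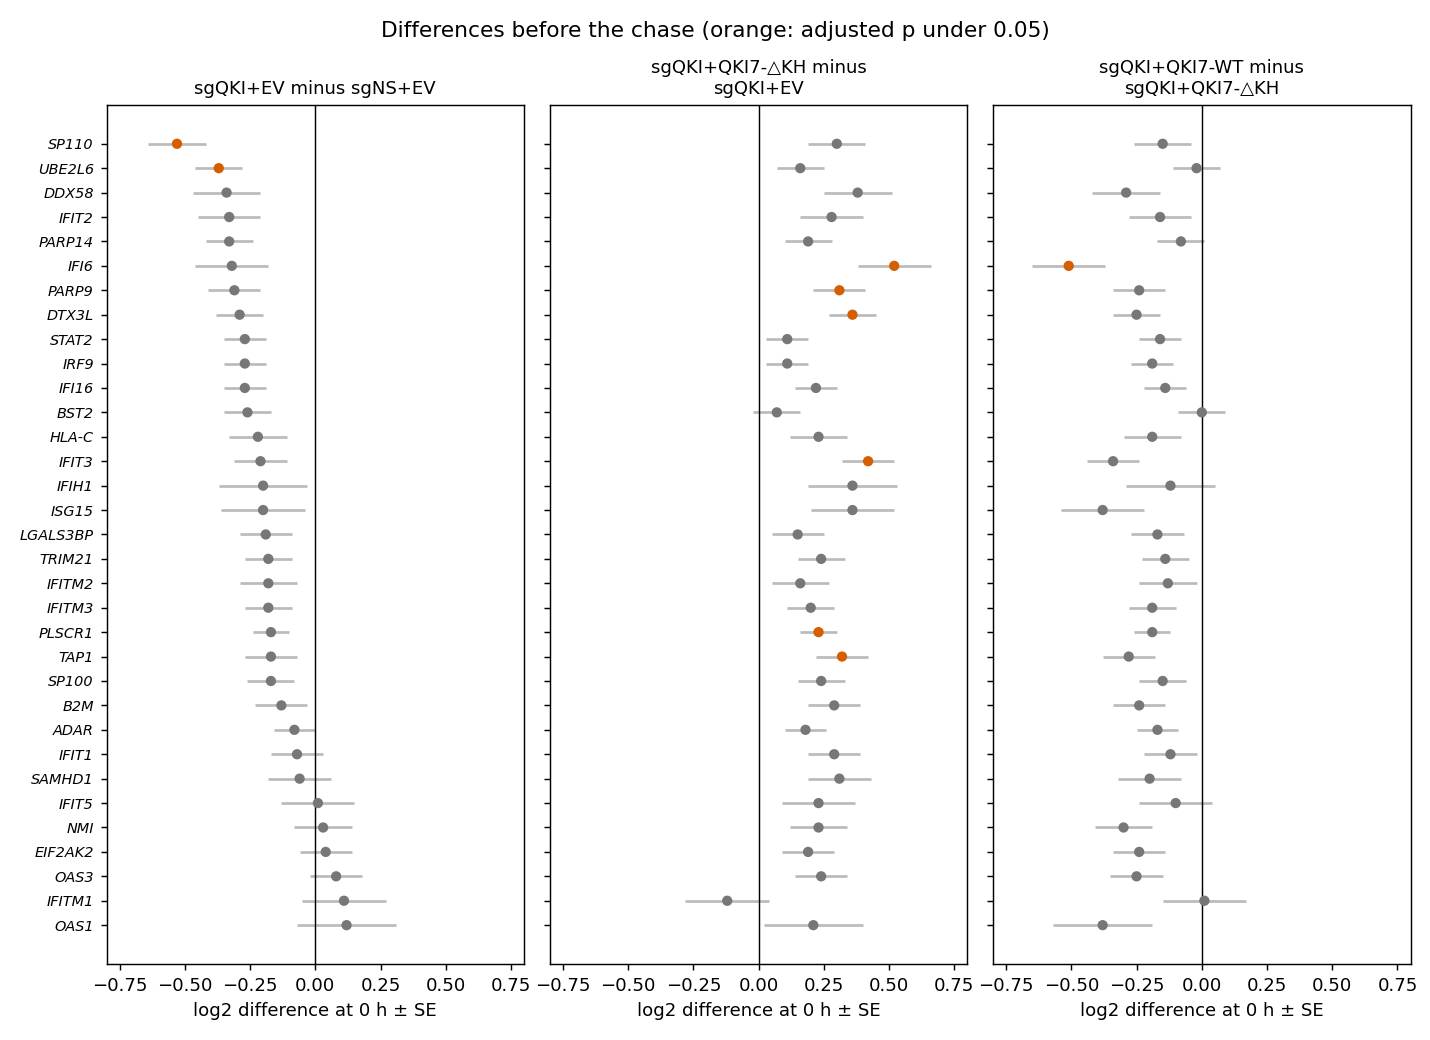
Log2 difference at 0 h with its SE (x axis) for the 33 members in 3 comparisons. Orange points passed an adjusted p of 0.05: SP110 and UBE2L6 on the left, 6 members in the middle and IFI6 on the right.

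The third question was whether loss over 8 h depended on QKI. A decay difference is the log2 change from 0 h in the first genotype less the same change in the second (an interaction term), so a negative value is a larger fall in the first. Between sgQKI+EV and sgNS+EV, 0 of 33 members passed over 8 h in the limma fit, beside 0.677% of all genes. At an unadjusted p under 0.05 there was 1 member, ADAR, and the share of all genes at that threshold was not counted. ADAR fell from 154 and 168 to 90.6 and 96.3 in sgNS+EV and from 154 and 150 to 71.8 and 68.8 in sgQKI+EV, a decay difference of −0.32 (SE 0.12, adjusted p = 0.184). The 8 h libraries of the genotypes stood well apart, and the 0 h libraries nearly met. The values ran from −0.54 for OAS1 (SE 0.27) to 0.17 for SP110, with a median of −0.14, equal to the −0.14 of all genes.

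Between sgQKI+QKI7-WT and sgQKI+QKI7-△KH, 0 members passed over 8 h, beside 0% of all genes. At an unadjusted p under 0.05 there were 2, IFIT3 and IFITM1, again with no share of all genes counted. IFIT3 fell from 76.9 and 80.1 to 8.02 and 7.40 in sgQKI+QKI7-WT and from 102 and 97.5 to 12.7 and 15.6 in sgQKI+QKI7-△KH (−0.45, SE 0.14, adjusted p = 1). IFITM1 gave −0.46 (SE 0.22, adjusted p = 1). The median over the members was −0.03 and that of all genes 0.00. The median SE of such a difference over all genes was 0.15.

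Over the first 4 h some members did pass. Between sgQKI+EV and sgNS+EV, IFI6 (0.80, SE 0.19, adjusted p = 0.0347) and HLA-C (0.51, SE 0.16, adjusted p = 0.0464) were higher and EIF2AK2 (−0.42, SE 0.14, adjusted p = 0.0499) lower, beside 1.80% of all genes higher, 8.89% lower and 10.7% in all. HLA-C went from 149 and 158 to 113 and 122 at 4 h in sgNS+EV and from 132 and 132 to 155 and 133 in sgQKI+EV, so that the 4 h libraries stood in the opposite order to those at 0 h. EIF2AK2 went from 51.6 and 50.6 to 47.1 and 43.3 in sgNS+EV and from 52.8 and 52.4 to 36.7 and 32.4 in sgQKI+EV, with 4 h libraries that did not overlap. None of the 3 calls was stable to single libraries: HLA-C (adjusted p 0.0552 to 0.185) and EIF2AK2 (0.0562 to 0.196) were lost without any 1 of the 8 libraries of this comparison, the 0 h and 4 h replicates of both genotypes, and IFI6 passed only without sgNS+EV 0 h replicate 1 (0.0388, against 0.0509 to 0.171 without each of the other 7). The count was 14 with library totals (1 higher and 13 lower), 9 in a fit on the compared groups (5 and 4) and 6 with quantile normalisation (5 and 1). The shares of all genes called in either direction were 38.7%, 25.0% and 19.5%.

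Between sgQKI+QKI7-WT and sgQKI+QKI7-△KH, 5 members were higher over 4 h (a smaller fall, or a rise, in sgQKI+QKI7-WT), beside 16.0% of all genes. They were EIF2AK2 (0.51, SE 0.14, adjusted p = 0.0295), B2M (0.48), IFIT1 (0.45), IFI16 (0.42) and DTX3L (0.37). EIF2AK2 was 52.7 and 48.8 at 0 h and 54.97 and 41.76 at 4 h in sgQKI+QKI7-WT, and 59.5 and 60.9, then 40.0 and 39.6, in sgQKI+QKI7-△KH. B2M was 1260 and 1186, then 1641 and 1227, in sgQKI+QKI7-WT, and 1497 and 1391, then 1201 and 1197, in sgQKI+QKI7-△KH. In both, sgQKI+QKI7-WT 4 h replicate 1 was well above replicate 2. The share of members called (5 of 33) is near that of all genes. Their median was 0.23, beside 0.24 for all genes. None of the 5 calls held in every run that left out 1 library. The members' median was 0.18 without sgQKI+QKI7-WT 4 h replicate 1 and 0.31 without its replicate 2. The count was 0 with quantile normalisation, library totals or a fit on the compared groups, beside 0% of all genes in each.

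**Figure D4:**
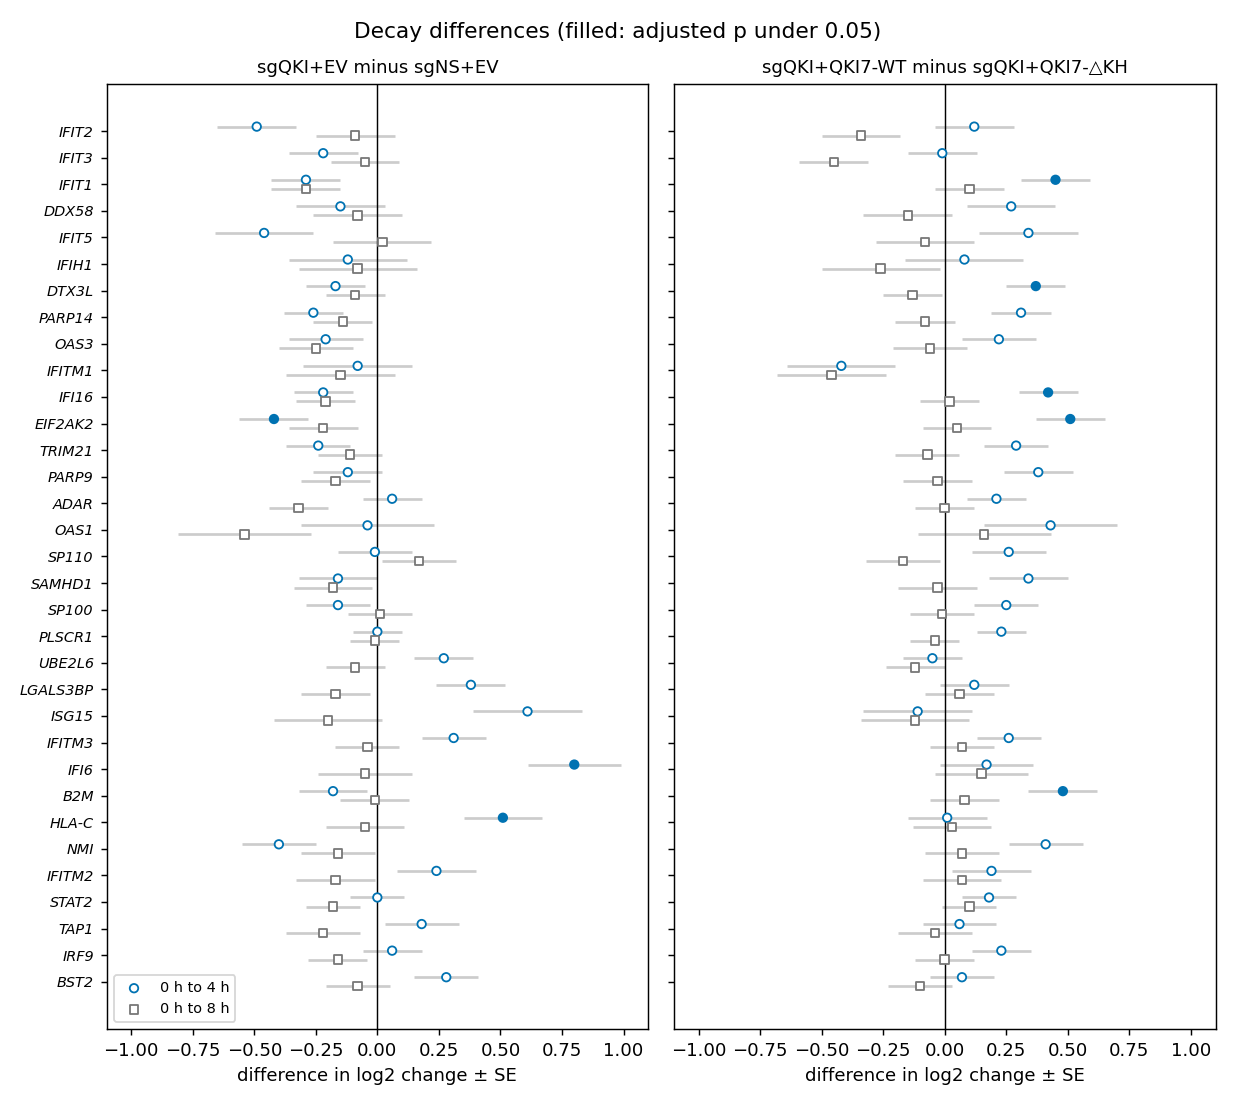
Decay differences with their SE (x axis, log2) for the 33 members, over 4 h (circles) and 8 h (squares), for sgQKI+EV minus sgNS+EV (left) and sgQKI+QKI7-WT minus sgQKI+QKI7-△KH (right). Filled points passed an adjusted p of 0.05: 3 on the left and 5 on the right, all over 4 h, and 0 over 8 h.

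QKI binds the sequence ACUAAC or ACUAAU in RNA, usually beside a shorter partner element. In the longest protein-coding GENCODE 29 transcript of each gene, ACUAAC was present in 7 of 33 members (21.2%), against 27.9% of 11337 measured genes, and ACUAAU in 11 (33.3%), against 36.8%. The members' transcripts had a median length of 2496 bases, against 3466 for all genes. EIF2AK2, the longest of the members' transcripts, had 3 copies of the first word and 6 of the second in 10042 bases. That is 0.896 of either word per kilobase, below NMI at 1.23 and IFITM2 at 1.12. The element AUUUA, found in many short-lived mRNAs, had a median of 1.09 per kilobase in the members and 1.03 in all genes. A word in a transcript describes its letters and not a site in use.

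Other genes of the pathway were read from lists of receptors and JAK-STAT signalling, interferon regulatory factors, nucleic acid sensing, further interferon-stimulated genes, and class I and II presentation. In sgNS+EV, 16 of 17, 8 of 9, 19 of 19, 37 of 41 and 12 of 14 of these fell from 0 h to 8 h, beside 88.2% of all genes, and 0 rose. SOCS3, a feedback inhibitor of JAK kinases, fell most in the first list (−3.99, SE 0.13), and the receptor subunits IFNGR2 and IFNAR1 changed by −2.18 and −1.37. Among further interferon-stimulated genes OASL fell by 2.69, SAMD9 by 1.97 and APOL6 by 1.86. In nucleic acid sensing the kinase TBK1 changed by −1.81, and the adaptors TRAF6, TMEM173 (STING) and MAVS by −1.56, −1.38 and −1.27. The list medians were −0.89, −0.74, −0.98, −0.81 and −0.57, beside −0.70 for all genes.

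At 0 h in sgQKI+EV against sgNS+EV, 0 of 17, 0 of 9, 0 of 19, 2 of 41 and 2 of 14 were lower and 0 higher, beside 1.37% of all genes lower. An unadjusted p under 0.05 in limma was found for 4, 3, 2, 9 and 4. The share of all genes at that threshold was not counted, so these unadjusted counts have no background. C19orf66, an antiviral inhibitor of translation (−0.53, SE 0.11, adjusted p = 0.0114), and SLFN5 (−0.48, SE 0.10, adjusted p = 0.0188) fell among interferon-stimulated genes. HLA-H (−0.80, SE 0.19), a class I pseudogene whose reads may be shared with its relatives, and PSME1 (−0.38, SE 0.08), a subunit of the proteasome activator, fell among presentation genes. In sgQKI+QKI7-△KH against sgQKI+EV, 6 of 17, 0 of 9, 4 of 19, 4 of 41 and 6 of 14 were higher, beside 12.6% of all genes, among them PSME1 (0.32) and IFI44 (0.36). The list medians were 0.21, 0.14, 0.24, 0.22 and 0.27, beside 0.19 for all genes, which other scalings moved to 0.00 or −0.05. In sgQKI+QKI7-WT against sgQKI+QKI7-△KH, 4 of 17, 0 of 9, 2 of 19, 4 of 41 and 2 of 14 were lower, with IFI44 at −0.47, beside 3.71% of all genes. In that comparison 90.9% of all genes lay below 0. For both decay differences over 8 h, 0 genes of these lists passed, beside 0.677% and 0% of all genes. At an unadjusted p under 0.05 there were 5, 1, 0, 5 and 2 in the first and 0, 0, 0, 1 and 0 in the second. These too have no all-gene share to be set against.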

How the data were processed

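The deposited table held 12585 rows and 24 columns, 1 per library: 38 ERCC rows and 12547 endogenous rows by gene symbol. The authors deposited a signal on a linear scale. It was read as spike-in-normalised from the values, since ERCC rows summed to 11485 to 11940 in each library and endogenous rows to 6.904e+05 to 1.368e+06. The unit before that step is not given in the sources used here, so read depth is unknown and precision comes from replicate libraries. STAR, RSEM and GRCh38 are named in the submitters' processing notes, and a stranded mRNA kit in the labels' protocols. Groups came from sample titles.

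Tests used log2 of the signal plus 1, and requiring a signal of 1 or more in 2 or more libraries removed 0 genes. In R 4.3.3, limma 3.58.1 fitted the 12 group means on the 24 libraries, its prior variance following mean expression (12 residual degrees of freedom, prior 9). Tests were two-sided, with Benjamini-Hochberg adjustment over 12547 genes and a threshold of 0.05. Changes are thus of the signal plus 1, while percent left and half-lives use group means without the added 1 (n = 2). On simulated data for sgQKI+EV against sgNS+EV at 0 h with 12547 genes, 68% of changes of 0.5 log2 and 99% of changes of 1 were recovered.

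Each count was repeated leaving out each library, with the compared groups only, with a replicate block, with quantile normalisation or library totals, and with a pseudocount of 0.1. Counts at 0 h and over 8 h were also repeated with no filter, which changes nothing here because the filter removed 0 genes, and those over 8 h with 4 h in place of 8 h. Changes from 4 h to 8 h, and alternatives for them and for the 4 h decay differences, were added after the data were seen. The rule for members is by name, but members and gene lists were chosen with earlier results of these data known. All measured members could be named, with up to 4 passing genes per other list and comparison, the largest changes first, and QKI. The IFIT2 and IFITM2 promoters are not analysed here.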

Additional observations from a re-analysis of the deposited data

Results flagged for a closer look

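Members differed between genotypes in their change over part of the chase by the test of the difference itself (limma interaction, adjusted over 12547 genes), though none did so over 8 h. Over the first 4 h these were IFI6 (0.80), HLA-C (0.51) and EIF2AK2 (−0.42) between sgQKI+EV and sgNS+EV, and EIF2AK2 (0.51), B2M (0.48), IFIT1 (0.45), IFI16 (0.42) and DTX3L (0.37) between sgQKI+QKI7-WT and sgQKI+QKI7-△KH. From 4 h to 8 h they were IFI6 (−0.85), ISG15 (−0.81), HLA-C (−0.55), LGALS3BP (−0.55) and ADAR (−0.38) in the first comparison, and DTX3L (−0.51), EIF2AK2 (−0.46), IFIT3 (−0.44), PARP9 (−0.41), PARP14 (−0.40) and IFI16 (−0.40) in the second. These are 3 and 5 of 33 members over the first 4 h, beside 10.7% and 16.0% of all genes, and 5 and 6 from 4 h to 8 h, beside 13.0% and 16.1% called in either direction, so the shares are near those of all genes. With quantile normalisation 6, 0, 0 and 0 members passed in these. Both intervals share the 4 h libraries, so a high or low 4 h library gives opposite signs in them. The sgQKI+QKI7-WT libraries at 4 h had the lowest replicate correlation of the 12 groups (r = 0.9889). The calls of this genotype pair depended on which of them was kept. Without replicate 1 of them the members' median difference was 0.18 over the first 4 h and −0.22 from 4 h to 8 h. Without replicate 2 it was 0.31 and −0.44, beside 0.23 and −0.29 with all libraries.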

How the results depend on the processing

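Read depth is unknown, and 2 libraries a group limit the precision. At 0 h, members called in sgQKI+EV against sgNS+EV numbered 2, 7 with quantile normalisation, 2 with library totals (OAS3 higher and SP110 lower) and 18 from the compared groups only. The shares of all genes were 1.55%, 6.18%, 8.23% and 10.6%. For sgQKI+QKI7-WT against sgQKI+QKI7-△KH they numbered 1, 0 with quantile normalisation or library totals, and 3 from the compared groups. There the shares of all genes were 3.75%, 1.13%, 0.438% and 2.11%. For sgQKI+QKI7-△KH against sgQKI+EV they numbered 6, 0 with either other scaling and 17 from the compared groups, beside 12.7%, 0.693%, 0.375% and 29.8% of all genes. Calls in these 0 h comparisons changed when 1 library was left out. Over 8 h in sgNS+EV the count went from 32 to 21 with quantile normalisation, library totals or 4 h in place of 8 h. Leaving out 1 library moved the members' median change between −0.65 and −0.55, beside −0.58 with all libraries. The shares of all genes with quantile normalisation, library totals and 4 h were 60.1%, 61.7% and 60.3% in sgNS+EV. With 4 h the count was 18 in sgQKI+EV (64.7% of all genes) and 13 in sgQKI+QKI7-WT (45.5%). In runs that left out 1 library, the members' median 8 h change was −0.86 to −0.67 in sgQKI+EV. It was −0.84 to −0.68 in sgQKI+QKI7-WT and −0.77 to −0.57 in sgQKI+QKI7-△KH. Decay differences over 8 h gave 0 members without any 1 library. sgQKI+EV minus sgNS+EV gave 1 from the compared groups (10.9% of all genes), 3 over 4 h (10.7%) and 5 from 4 h to 8 h (13.0%). sgQKI+QKI7-WT minus sgQKI+QKI7-△KH gave 5 over 4 h (16.0%) and 6 from 4 h to 8 h (16.1%). Over 4 h the first of these gave 6 with quantile normalisation (19.5%), 14 with library totals (38.7%) and 9 from the compared groups (25.0%). The second gave 0 in each of those settings (0% of all genes). Leaving out 1 library changed the calls of both, over 4 h and from 4 h to 8 h. From 4 h to 8 h the first gave 0 with quantile normalisation (0.319%), 11 with library totals (27.6%) and 10 from the compared groups (25.0%), and the second 0 in each (0%). In sgNS+EV alone that interval gave 23 calls (66.3% of all genes), with 2 higher (1.46% of all genes). Quantile normalisation gave 19 calls (50.9% of all genes), 10 of them higher, and library totals 23 (59.7%), 5 of them higher. Leaving out 1 library moved the members' median change between −0.45 and −0.36, beside −0.41 with all libraries. A pseudocount of 0.1 moved no count by over 1.5 times. The filter removed 0 genes, so leaving it out tests nothing. Other scalings take out all or part of the shared fall by construction, and beyond that the cause of these changes was not tested.

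Signs of called members turned as follows. For the 8 h change in sgQKI+EV, sgQKI+QKI7-WT and sgQKI+QKI7-△KH, 20, 15 and 19 members turned with quantile normalisation, 16, 10 and 13 with library totals, and 6, 7 and 1 with 4 h in place of 8 h. For the 8 h change in sgNS+EV, values above 0 with quantile normalisation were IFI6 0.32, IFITM1 0.08, IFITM2 0.15, IFITM3 0.06, ISG15 0.23, UBE2L6 0.21, STAT2 0.51, IRF9 0.61, OAS1 0.22, OAS3 0.07, B2M 0.03, HLA-C 0.19, TAP1 0.57, SP100 0.36, SP110 0.25, PARP9 0.03, TRIM21 0.00, SAMHD1 0.32, NMI 0.54, PLSCR1 0.34 and LGALS3BP 0.05. With library totals they were IFI6 0.19, IFITM2 0.23, IFITM3 0.18, ISG15 0.16, UBE2L6 0.09, STAT2 0.26, IRF9 0.30, B2M 0.21, HLA-C 0.21, TAP1 0.27, NMI 0.21, PLSCR1 0.01 and LGALS3BP 0.13. With 4 h in place of 8 h they were B2M 0.05 and NMI 0.12. PLSCR1 in sgQKI+QKI7-△KH against sgQKI+EV at 0 h was −0.02 with library totals.

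Same-numbered libraries deviated together in some pairs of groups and not in others. The 66 correlations of deviations ran from −0.42 to 0.48 with a median of −0.02, and 21 were over 0.1. With the replicate number as a block, the counts were 3, 1, 0 and 9 in the 0 h comparisons, beside 1.74%, 4.50%, 0.0717% and 14.9% of all genes. These comparisons are sgQKI+EV against sgNS+EV, sgQKI+QKI7-WT against sgQKI+QKI7-△KH, and sgQKI+QKI7-WT and sgQKI+QKI7-△KH against sgQKI+EV. Counts for the 8 h changes were 32, 33, 30 and 31 (88.6%, 91.0%, 90.5% and 91.2% of all genes). The decay differences gave 0 each over 8 h (0.869% and 0%) and 4 and 8 over 4 h (15.3% and 21.9%). From 4 h to 8 h they gave 5 and 10 (14.2% and 21.9%). The 4 h to 8 h change in sgNS+EV gave 23 (66.5%).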
